A study of Mus musculus with 10 samples.

Results

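Complex II, complex III and the ATP synthase of the inner mitochondrial membrane were examined in interscapular brown adipose tissue (iBAT) of mice lacking the adipose-selective lncRNA Gm15551. The genes were taken as the protein-coding records whose symbol starts with Uqcr or Atp5, with the subunits Sdha, Sdhb, Sdhc, Sdhd and Cyc1 and the assembly factors Sdhaf1 to Sdhaf4, Bcs1l, Ttc19, Atpaf1 and Atpaf2 added. This rule found 39 of the 54347 gene records, 8 for complex II, 11 for complex III and 20 for the ATP synthase. It left out subunits encoded on the mitochondrial genome and assembly factors under other symbols, which are given as partners. A second record under the symbol Atp5o (ENSMUSG00000116933.1) had 0 or 1 count per mouse and was not tested, so that 38 members entered the comparison.

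Poly A RNA was sequenced from iBAT of 5 ΔGm15551 mice, in which exon 1 of Gm15551 was deleted by CRISPR/Cas9, and 5 wild type littermates. All were 12 weeks old, carried the C57BL/6N background, were fed chow and were housed at 4 °C for 24 h before dissection. No mouse at a warmer temperature was thus part of the comparison. The deletion is in the germ line and so in every cell type of the body, and the knock-out mice had been backcrossed to wild type mice. Each library is a separate mouse, named here by its replicate number (1, 2, 4, 5 and 7 for ΔGm15551 and 2, 3, 5, 6 and 7 for wild type), and values per mouse are listed in this order. Wild type mice 5, 6 and 7 carry mouse numbers of a higher series than the other mice, and no ΔGm15551 mouse does. Libraries held 9680976 to 15771170 estimated counts. Gm15551 had 0 counts in the 5 ΔGm15551 mice and 1, 2, 6, 7 and 0 counts in the wild type mice, and a count of 0 allows up to 3 counts in a library, so that at this depth wild type mouse 7 could not be told from a ΔGm15551 mouse by its target gene. Summed markers of brown adipocytes (9 genes) took 11551 to 15791 CPM (counts scaled to a common total, here by the library total) in the 10 mice with none of the genes at 0. Markers of skeletal muscle (10 genes) ranged from 1.44 to 3112 CPM, and 2 to 5 of these 10 genes were at 0 in 4 of the mice.

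Complex II, succinate dehydrogenase, oxidises succinate in the citric acid cycle and passes its electrons to ubiquinone, and it pumps no protons. Complex III passes electrons from ubiquinol to cytochrome c and pumps protons, and the ATP synthase lets protons back into the matrix while it makes ATP. In cold-activated iBAT much of the proton gradient is spent as heat through Ucp1 instead. Brown fat is known for holding little ATP synthase for the size of its respiratory chain, which has been linked to low expression of Atp5g1, a gene for subunit c of the proton-conducting ring.

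Subunit c is encoded by 3 genes, Atp5g1, Atp5g2 and Atp5g3, whose products differ in the peptide that directs them to mitochondria and share the mature protein. The promoters of these genes are shown since the genes were expressed at very unlike levels, and those of Sdha and Uqcr11 since these members varied most between mice in complexes II and III. Of the 38 member symbols, 31 had an entry in the RefSeq promoter table on GRCm38.p6. The window searched was the 250 bases before the RefSeq start, and the runs printed stop, 0 to 80 bases before that start, where they would enter an exon of the gene in GENCODE. For Atp5g2 GENCODE also has an exon further upstream, so that its run lies within the annotated gene. All runs read 5′ to 3′ on the minus strand, and capitals mark a match to 1 of the motifs searched on both strands, NRF1 (the palindromic nuclear respiratory factor motif with 1 free base), ERR (AAGGTCA) and GABP (CCGGAAG).
Atp5g1, chr11:96075671-96075881: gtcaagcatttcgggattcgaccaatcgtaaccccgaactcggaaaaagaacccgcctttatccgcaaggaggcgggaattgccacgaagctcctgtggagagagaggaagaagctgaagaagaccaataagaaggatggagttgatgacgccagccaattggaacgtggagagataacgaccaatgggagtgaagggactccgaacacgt
Atp5g2, chr15:102671128-102671297: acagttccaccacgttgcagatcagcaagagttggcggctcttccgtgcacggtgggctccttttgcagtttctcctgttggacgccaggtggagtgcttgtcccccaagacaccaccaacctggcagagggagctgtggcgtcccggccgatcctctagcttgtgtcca
Atp5g3, chr2:73911327-73911576: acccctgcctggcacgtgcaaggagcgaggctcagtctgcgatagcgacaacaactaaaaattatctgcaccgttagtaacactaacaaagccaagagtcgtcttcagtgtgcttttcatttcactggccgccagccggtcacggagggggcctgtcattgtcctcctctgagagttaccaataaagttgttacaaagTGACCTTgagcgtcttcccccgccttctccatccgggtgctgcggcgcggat
Sdha, chr13:74350281-74350490: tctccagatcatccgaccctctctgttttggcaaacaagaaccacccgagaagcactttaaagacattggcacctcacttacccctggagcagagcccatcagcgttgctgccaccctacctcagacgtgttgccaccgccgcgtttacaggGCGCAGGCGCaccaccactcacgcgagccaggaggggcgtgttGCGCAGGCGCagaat
Uqcr11, chr10:80406831-80407071: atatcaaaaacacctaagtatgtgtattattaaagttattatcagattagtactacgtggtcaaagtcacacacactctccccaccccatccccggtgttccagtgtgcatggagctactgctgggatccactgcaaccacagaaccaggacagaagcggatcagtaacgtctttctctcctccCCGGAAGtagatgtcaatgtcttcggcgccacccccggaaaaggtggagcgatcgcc

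NRF1 and GABP are transcription factors known for driving nuclear genes of the respiratory chain, and ERR stands for the estrogen-related receptors, which do so with Ppargc1a. The NRF1 motif lay in the window of 6 of the 31 members with an entry (19.4%: Atp5c1, Atp5g2, Atp5h, Atp5k, Sdha and Sdhd) and of 1144 of all 27025 genes (4.23%). Sdha held it 3 times and Atp5g2 once, of which the last Sdha match and the Atp5g2 match lie within an annotated exon and are not printed. The GABP motif lay in 10 members (32.3%) and 7.83% of all genes, and the ERR motif in 2 members (6.45%, Atp5g3 and Atp5l) and 4.7% of all genes. None of the motifs overlapped another in the printed runs. A match of letters is not a bound site, and no binding was measured in these mice.

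The comparison of ΔGm15551 with wild type iBAT asked whether loss of the lncRNA altered the genes of these complexes in the cold. No member of any complex was called different between the genotypes. None of the 38 had an adjusted p under 0.05 in edgeR's quasi-likelihood test with Benjamini-Hochberg adjustment, as was so for all 13733 genes tested (0%). At an unadjusted p under 0.05 stood 0 members of complex II, 0 of complex III and 0 of the ATP synthase, beside 1.6% of all genes (3.04% without ΔGm15551 mouse 1 and 2.91% without wild type mouse 7, with 0 members in both). Nor did the groups of 5 values lie apart without overlap for any member, beside 0.32% of all genes. DESeq2 likewise called 0 genes and 0 members, and had 0 members at an unadjusted p under 0.05.

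The intervals say how large a difference these mice leave possible. The log2FC (ΔGm15551 minus wild type) had a 95% interval within ±0.5 for 30 of the 38 members, namely all 8 of complex II, 8 of 11 of complex III and 14 of 19 of the ATP synthase, beside 55.1% of all genes. Within ±1 lay the intervals of 38 members, beside 90.2% of all genes. The 8 members with wider intervals were Uqcr10, Uqcr11 and Uqcrq of complex III and Atp5d, Atp5e, Atp5k, Atp5g1 and Atp5g2 of the ATP synthase. Of all members 22 were higher and 16 lower in ΔGm15551. Their median log2FC was 0.013 and their median absolute log2FC 0.049, beside -0.0010 and 0.094 over all genes tested. These comparisons are not matched for abundance. Most members are abundant, whereas the genes tested include many with few counts, so that the smaller values cannot be read as a trait of these complexes.

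**Figure D1:**
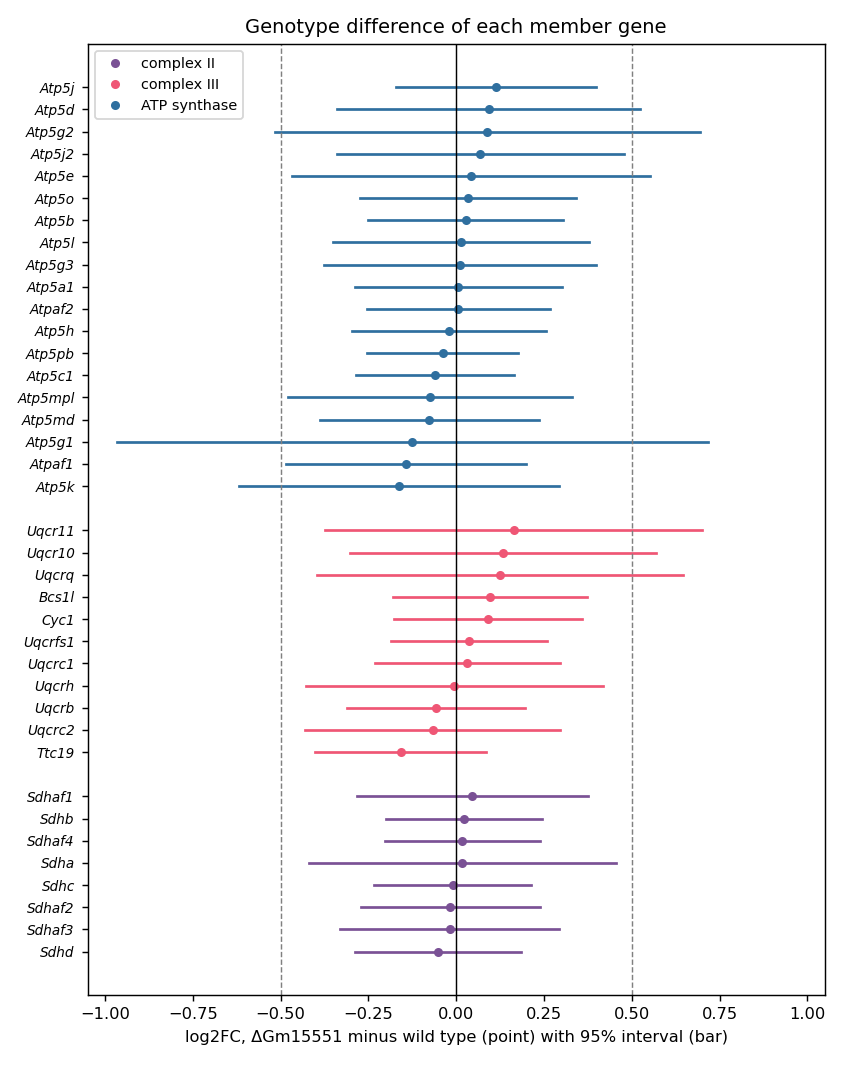
The log2FC of each of the 38 tested members (horizontal axis, ΔGm15551 minus wild type, points) is drawn with its 95% interval from edgeR (bars), grouped by complex and coloured by it, with dashed lines at ±0.5. All bars include 0, and 30 of the 38 lie between the dashed lines.

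Complex II showed the smallest differences. Its 8 members had a median log2FC of 0.0039, 4 were higher and 4 lower, and all lay between -0.052 (Sdhd) and 0.046, with the smallest unadjusted p at 0.641 for Sdhd. The complex took 0.360% ± 0.039 of all counts in ΔGm15551 and 0.358% ± 0.040 in wild type mice (SD, n = 5 each). In bulk tissue, fewer cells of a type and less RNA per cell cannot be told apart, here and in all that follows.

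Sdha (ENSMUSG00000021577.14, chr13:74322254-74350280, minus strand) encodes the flavoprotein that oxidises succinate. It stood at 1132, 1976, 1891, 1638 and 2138 CPM (scaled by TMM, as are all values per gene below) in the ΔGm15551 mice and at 1592, 2033, 2026, 1928 and 1087 CPM in the wild type mice. Its lowest value in each genotype lay far below the other 4, in ΔGm15551 mouse 1 and wild type mouse 7, and the groups overlapped over nearly their whole range. The log2FC was 0.02 ± 0.20 (SE, edgeR, 95% interval -0.42 to 0.45).

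The iron-sulfur subunit gene Sdhb varied far less, with 647, 609, 595, 732 and 676 CPM in ΔGm15551 mice and 641, 614, 677, 631 and 645 CPM in wild type mice. Its log2FC of 0.02 ± 0.10 (SE) had a 95% interval of -0.20 to 0.25. Values of the membrane anchor genes were as even. Sdhc stood at 344, 393, 394, 417 and 439 CPM against 383, 419, 406, 415 and 378 CPM (log2FC -0.01 ± 0.10). Sdhd stood at 610, 621, 639, 731 and 759 CPM against 674, 721, 739, 709 and 641 CPM (log2FC -0.05 ± 0.11). For Sdhb, Sdhc and Sdhd the highest mouse was 1.23, 1.27 and 1.24 times the lowest, against 1.97 times for Sdha.

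The assembly factors were scarce beside the subunits. Sdhaf2, which helps to attach the flavin to Sdha, stood at 35.7 to 51.2 CPM, and Sdhaf4, which binds the flavinated Sdha, at 30.2 to 41.4 CPM. Sdhaf1 and Sdhaf3 serve the iron-sulfur clusters of Sdhb. Sdhaf1 stood at 24.0 to 44.2 CPM, but 69.9% of its 31-base words also occur in transcripts of other genes, E130208F15Rik among them, so that its count is uncertain. Sdhaf3 was the least abundant tested member per kilobase of exon union, at 11.2, 11.3, 11.1, 10.5 and 10.1 CPM in ΔGm15551 mice and 12.7, 13.4, 10.1, 11.1 and 7.60 CPM in wild type mice. The ΔGm15551 values of Sdhaf3 lay within the wild type range (log2FC -0.02 ± 0.14).

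Complex III had a median log2FC of 0.036, and no member of it passed the test. Leaving out each mouse in turn moved this median between 0.0069 and 0.086. Of its 11 members 7 were higher and 4 lower in ΔGm15551, from -0.16 (Ttc19) to 0.16 (Uqcr11), and the smallest unadjusted p was 0.183 (Ttc19). The complex took 0.637% ± 0.070 of counts in ΔGm15551 and 0.617% ± 0.061 in wild type mice (SD, n = 5 each). Lacking the 3 higher-numbered wild type mice, the median log2FC of complex III was 0.16, again with 0 members called.

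Of the electron-carrying subunits, Uqcrfs1 varied less between mice than Cyc1. Uqcrfs1 (ENSMUSG00000038462.3), the Rieske iron-sulfur protein, stood at 945, 957, 960, 1060 and 1050 CPM in ΔGm15551 mice and 981, 931, 1056, 968 and 914 CPM in wild type mice (log2FC 0.04 ± 0.10). Its highest mouse was only 1.16 times its lowest. Cyc1, cytochrome c1, stood at 853, 834, 797, 1029 and 894 CPM against 862, 662, 927, 827 and 865 CPM, a range of 1.56 times. The Cyc1 values of the genotypes overlapped, with the lowest in wild type mouse 3 and the highest in ΔGm15551 mouse 5 (log2FC 0.09 ± 0.12). Without these mice the log2FC was 0.019 and 0.026, respectively.

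The core proteins Uqcrc1 and Uqcrc2 hold the complex together on its matrix side. Uqcrc1 stood at 904, 1155, 1051, 1229 and 1174 CPM in ΔGm15551 mice and 1036, 1015, 1239, 1109 and 992 CPM in wild type mice (log2FC 0.03 ± 0.12). Uqcrc2 ranged from 618 to 1077 CPM, with its lowest values again in ΔGm15551 mouse 1 (636 CPM) and wild type mouse 7 (618 CPM). All other mice had 765 CPM or more.

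Of the small subunits all but Uqcrb varied more than the core proteins. Uqcr11 (ENSMUSG00000020163.12, chr10:80402997-80406830, minus strand), the smallest supernumerary subunit, stood at 587, 308, 326, 615 and 353 CPM in ΔGm15551 mice and 421, 256, 372, 322 and 582 CPM in wild type mice. Each genotype thus held high and low mice, and the log2FC of 0.16 ± 0.25 (SE) had an interval of -0.37 to 0.70. It was 0.0087 without ΔGm15551 mouse 5 and 0.35 without wild type mouse 7. Uqcr10, Uqcrq, Uqcrh and Uqcrb are further small subunits. The ratio of the highest to the lowest mouse was 1.85, 2.25, 1.96 and 1.34 for them, and 34.8% of the 31-base words of Uqcrb are shared with other transcripts. Mice 1 and 5 of ΔGm15551 and mouse 7 of wild type gave the 3 highest values of Uqcr10, Uqcr11, Uqcrq and Uqcrh.

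Assembly of complex III ends with insertion of the Rieske protein by Bcs1l and with clearance of its fragments, in which Ttc19 takes part. Bcs1l stood at 22.7 to 32.9 CPM. Ttc19, the member with the smallest p of all, stood at 44.2, 46.9, 50.8, 46.0 and 49.8 CPM in ΔGm15551 mice and 42.0, 62.1, 56.0, 56.6 and 48.5 CPM in wild type mice. Of the wild type mice 3 lay above all ΔGm15551 mice and 1 below them, and the log2FC of -0.16 ± 0.11 (SE) had an interval of -0.40 to 0.08 (unadjusted p = 0.183, adjusted p = 0.99998 in edgeR). The log2FC of Ttc19 was -0.23 without wild type mouse 2, -0.096 without wild type mouse 3 and -0.029 under the block by replicate number in 6 mice.

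The ATP synthase took the largest part of the counts, 1.26% ± 0.073 in ΔGm15551 and 1.24% ± 0.081 in wild type mice (SD, n = 5 each). Its 19 tested members had a median log2FC of 0.0058, 11 were higher and 8 lower, and they ranged from -0.16 (Atp5k) to 0.11. The smallest unadjusted p was 0.382, for the assembly factor Atpaf1.

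The catalytic head is built mainly of the α and β subunits. Atp5b, the catalytic β subunit, was the most abundant member per length and stood at 4061, 4599, 4835, 4774 and 5240 CPM in ΔGm15551 mice and 4729, 4876, 5149, 4652 and 3666 CPM in wild type mice. Atp5a1, the α subunit, stood at 2203, 2973, 2894, 2767 and 3263 CPM against 2836, 2831, 3160, 2925 and 2291 CPM. In both genes the lowest mice were ΔGm15551 mouse 1 and wild type mouse 7. The log2FC was 0.03 ± 0.13 for Atp5b and 0.01 ± 0.14 for Atp5a1 (SE). Of the small parts of the head and its shaft, Atp5c1 (γ) stood at 251 to 319 CPM, Atp5d (δ) at 481 to 988 CPM and Atp5e (ε) at 232 to 522 CPM.

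The peripheral stalk holds the head still against the turning ring. Its gene Atp5pb (subunit b), at 584 to 687 CPM, was the steadiest member by within-group SD, 0.072 on the log2 scale. By the ratio of the highest to the lowest mouse Uqcrfs1 (1.16) was steadier than Atp5pb (1.18). Atp5h (subunit d) stood at 373 to 528 CPM, Atp5o (the oligomycin sensitivity protein) at 389 to 587 CPM and Atp5j (coupling factor 6) at 110 to 175 CPM. Counts of Atp5o and Atp5h are uncertain, since 49.6% and 25.4% of their 31-base words also occur in other transcripts, pseudogenes among them.

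Subunit c came almost wholly from Atp5g3 (ENSMUSG00000018770.9, chr2:73908447-73911326, minus strand). It stood at 253, 160, 169, 227 and 192 CPM in ΔGm15551 mice and 207, 149, 183, 174 and 281 CPM in wild type mice (log2FC 0.01 ± 0.18), which was 87.5% to 92.6% of the counts of the 3 genes, or 88.1% to 93.6% per length of exon union. Atp5g1 (ENSMUSG00000006057.15, chr11:96068852-96075670, minus strand) stood at 14.7, 7.46, 13.3, 11.1 and 6.04 CPM in ΔGm15551 mice and 8.60, 4.97, 11.0, 8.72 and 24.5 CPM in wild type mice. It made up 1.29% to 3.50% of subunit c on the same scale. Atp5g1 was the member that varied most between mice, with a within-group SD of 0.70 on the log2 scale from 58 to 239 counts per mouse, and its log2FC of -0.12 ± 0.38 (SE) had an interval of -0.97 to 0.72. Without wild type mouse 7 its log2FC was 0.33, and without ΔGm15551 mouse 7 it was 0.02, not called in either case. Atp5g1 moved with the skeletal muscle markers (10 genes). In ΔGm15551 mice 1 and 4 and wild type mouse 7, which had the 3 highest values of Atp5g1, these markers summed to 837, 1980 and 3112 CPM with none at 0. In the 4 mice with 2 to 5 of the markers at 0 (1.44 to 2.63 CPM in sum), Atp5g1 stood at 4.97 to 8.72 CPM. The remaining mice followed less closely. Atp5g1 stood at 8.60 CPM in wild type mouse 2 (58.3 CPM of markers), 11.1 CPM in ΔGm15551 mouse 5 (79.6 CPM) and 11.0 CPM in wild type mouse 5 (282 CPM). With a muscle score as a covariate the log2FC of Atp5g1 was -0.067, with a narrower interval of -0.46 to 0.33, and it was not called. Whether muscle was the source of Atp5g1 was not tested.

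Atp5g2 (ENSMUSG00000062683.11, chr15:102662864-102672352, minus strand) was similarly scarce, at 18.6, 6.18, 10.9, 10.5 and 10.2 CPM in ΔGm15551 mice and 7.97, 13.8, 6.58, 9.76 and 15.1 CPM in wild type mice (log2FC 0.09 ± 0.28). Its mice did not keep the order of Atp5g1, as in wild type mouse 3, the lowest for Atp5g1 and the highest but 1 of its genotype for Atp5g2. Of the 31-base words of Atp5g2, 40.2% are shared with other transcripts such as Gm10175, against 14.1% for Atp5g1 (with Gm10039) and 0% for Atp5g3. Counts of Atp5g1 and Atp5g2 are therefore uncertain. The same limit holds for Atpaf1 (23.1% shared), Uqcrc2 (18.5%), Atp5pb (17.7%) and Atp5l (14.2%).

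**Figure D2:**
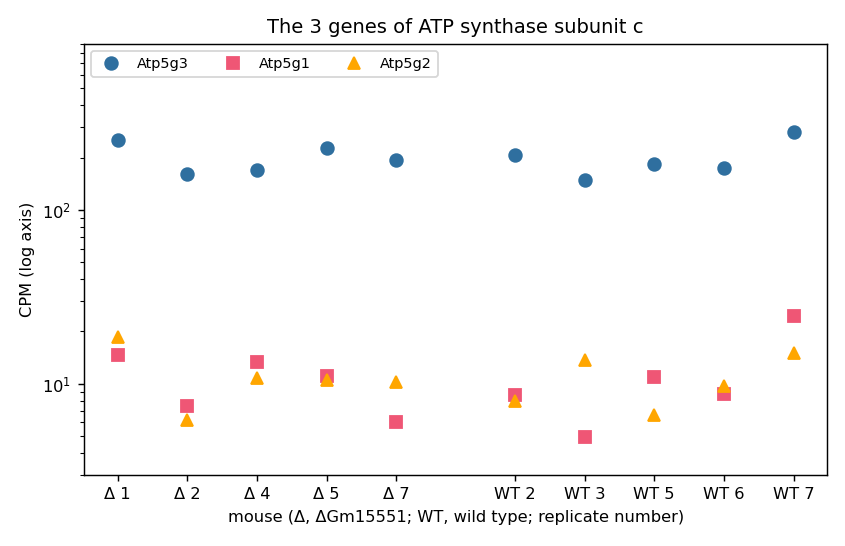
The CPM (log axis) of the 3 genes of subunit c is plotted for each of the 10 mice, with circles for Atp5g3, squares for Atp5g1 and triangles for Atp5g2. Atp5g3 lies at 149 to 281 CPM in every mouse, above both other genes, while Atp5g1 runs from 4.97 to 24.5 CPM.

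Other membrane subunits help to join ATP synthase molecules into rows of dimers. Atp5k (subunit e) had the lowest log2FC of all members, -0.16 ± 0.21 (SE), at 227, 125, 136, 227 and 166 CPM in ΔGm15551 mice and 203, 197, 157, 148 and 282 CPM in wild type mice. Without wild type mouse 7 the log2FC of Atp5k was -0.00061, and without ΔGm15551 mouse 5 it was -0.27. The ranges of the genotypes overlapped except for the 2 lowest ΔGm15551 mice and the highest wild type mouse. Atp5l (subunit g) stood at 309 to 519 CPM, Atp5j2 (subunit f) at 393 to 741 CPM, Atp5md at 204 to 321 CPM and Atp5mpl at 159 to 311 CPM.

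Atpaf1 and Atpaf2 are chaperones that bind the free β and α subunits. Atpaf1 stood at 27.5, 40.1, 34.5, 33.0 and 35.4 CPM in ΔGm15551 mice and 34.2, 37.8, 43.2, 47.5 and 25.3 CPM in wild type mice (log2FC -0.14 ± 0.16). Its log2FC was -0.047 without wild type mouse 6 and -0.26 without wild type mouse 7. Wild type mice held both the highest and the lowest value. Atpaf2 was more abundant, at 124 to 173 CPM.

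Levels of different genes were compared as counts per kilobase of the union of a gene's exons, scaled to the same sum in each mouse. On this scale most assembly factors stood far below the subunits. Atp5b (mean 2185, range 1548 to 2459 over the 10 mice) and Atp5a1 (1785) led the ATP synthase, Uqcrfs1 (1429, 1200 to 1626) led complex III and Sdhd (1102, 894 to 1242) led complex II. At the low end stood Atp5g1 (4.40), Ttc19 (21.3) and Sdhaf3 (4.26). The ranges of neighbours in the order overlapped as a rule, such as those of Uqcrfs1, Uqcr11 and Uqcr10.

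**Figure D3:**
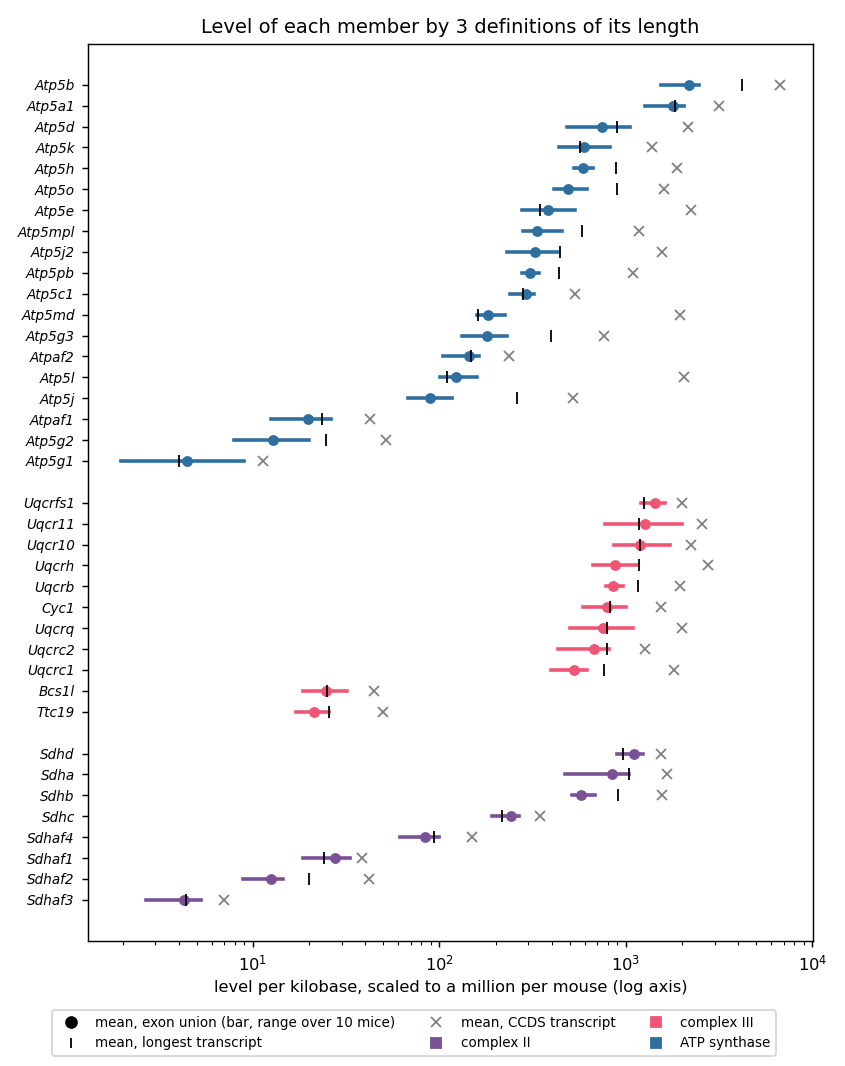
The mean level per kilobase of each tested member (log axis) is shown by exon union (dots, with bars from the lowest to the highest of 10 mice), by the longest transcript (ticks) and by transcripts with a CCDS entry (crosses). Under all 3 definitions the Sdhaf genes lie lowest in complex II, Bcs1l and Ttc19 in complex III, and Atp5g1, Atp5g2 and Atpaf1 in the ATP synthase.

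The order depended on the length used, also at the low end, where Atp5g1 (4.01) stood below Sdhaf3 (4.38) by the longest transcript. By exon union Atp5g3 ranked 26 of the members at 180, and by the longest transcript 22 at 397. Atp5l moved furthest, from rank 28 at 123 by exon union to rank 8 at 2039 by the CCDS transcript, since its annotated exons (6443 bases in union) far exceed its CCDS transcript (544 bases). The leaders of complexes II and III changed too. Sdha (1045) stood above Sdhd (961) by the longest transcript. By the CCDS transcript Sdha (1664) and Sdhb (1563) stood above Sdhd (1535), and Uqcrh (2770) and Uqcr11 (2559) above Uqcrfs1 (1990). Atp5b and Atp5a1 ranked 1 and 2 under all 3 definitions.

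Short members varied more between mice than long ones in the median, with wide overlap. The length used is that of a gene's transcripts with a CCDS entry (their median), and the limit of 1000 bases was set after the values had been seen. The 18 members under 1000 bases (362 to 963) had a median within-group SD of 0.33 on the log2 scale, and the 20 longer ones (1142 to 4323 bases) of 0.17, beside 0.27 over all genes. Single members ranged from 0.14 to 0.53 among the short and from 0.072 to 0.70 among the long ones. For the other tested genes the median was 0.28 under 1000 bases and 0.25 from 1000 bases. The short group holds most small subunits of complex III and the ATP synthase and, of complex II, only Sdhaf4. Complex by complex the median SD was 0.16 for complex II, 0.20 for complex III and 0.28 for the ATP synthase, with 0.24 for 47 genes of complex I and 0.27 for 15 genes of cytochrome c oxidase.

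In ΔGm15551 mouse 1 and in wild type mouse 7, 17 of the 18 short members lay above their mean over all mice, in wild type mouse 2, 16 did and in ΔGm15551 mouse 5, 15. None of the 18 did so in ΔGm15551 mouse 2 and wild type mouse 6. The median deviation of short members minus that of long members was 0.55, -0.35, -0.16, 0.22 and -0.15 in the ΔGm15551 mice. It was 0.06, -0.31, -0.19, -0.29 and 0.60 in the wild type mice. Both genotypes thus held mice with high and mice with low short members, and the means were 0.022 ± 0.36 and -0.026 ± 0.38 (SD, n = 5 each).

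**Figure D4:**
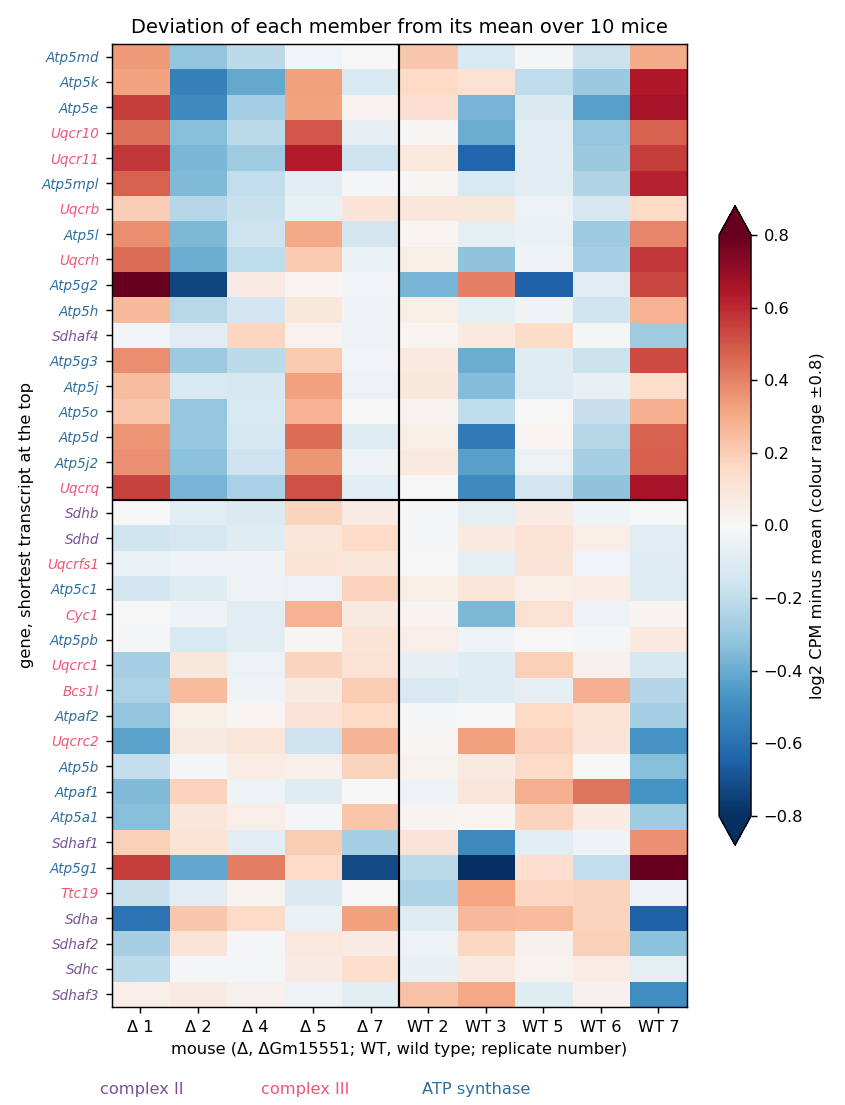
Each row is a member, ordered from the shortest transcript at the top, each column a mouse, and the colour is the log2 CPM minus the gene's mean over the 10 mice (scale ended at ±0.8, with symbols coloured by complex). Above the line at 1000 bases, ΔGm15551 mouse 1 and wild type mouse 7 are red for 17 of the 18 genes and ΔGm15551 mouse 2 and wild type mouse 6 for 0 of them.

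Across the 38 members, which share each library, Spearman's rho between length and deviation ran from -0.70 in ΔGm15551 mouse 1 to 0.78 in wild type mouse 6. The same tilt was found outside these complexes, weaker but with the same sign in every mouse (rho from -0.32 to 0.27). The 713 other tested genes under 1000 bases, complex I and cytochrome c oxidase genes among them, had median deviations of 0.23, -0.16, -0.14, 0.23 and -0.07 in the ΔGm15551 mice and 0.06, -0.23, -0.06, -0.12 and 0.29 in the wild type mice. Medians of complex I (0.26 in ΔGm15551 mouse 1, 0.22 in wild type mouse 7) and of cytochrome c oxidase (0.30 and 0.34) moved likewise.

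**Figure D5:**
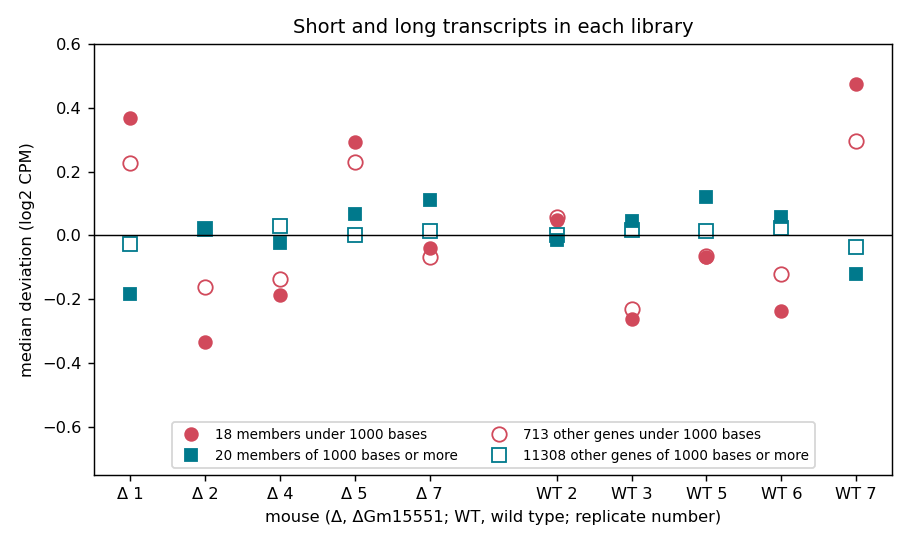
The median deviation from the mean over 10 mice (log2 CPM) is shown for each mouse, for members (filled) and other tested genes (open) under 1000 bases (circles) and from 1000 bases (squares). Filled and open circles lie on the same side of 0 in every mouse, highest in ΔGm15551 mice 1 and 5 and wild type mouse 7, while the open squares stay between -0.04 and 0.03.

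Several measures moved with these differences between mice, some only in part. Summed endothelial markers (5 genes, none at 0) stood at 1136 to 1329 CPM in the 4 mice whose short members exceeded the long ones and at 709 to 908 CPM in the other 6. Red blood cell markers (5 genes, none at 0) stood at 1485 to 2559 CPM in the 3 mice with the highest short members. They stood at 646 to 1098 CPM in the other 7. The lowest sum, 646 CPM, was that of wild type mouse 2, whose short members also exceeded the long ones. Macrophage markers (5 genes, none at 0) followed in part. They stood at 66.3, 41.0, 75.2 and 58.8 CPM in ΔGm15551 mice 1 and 5 and wild type mice 2 and 7, against 33.9 to 46.0 CPM in the others. Skeletal muscle markers (10 genes) stood at 58.3, 79.6, 837 and 3112 CPM in the 4 mice with higher short members, highest in the 2 with the largest excess of short members, and none was at 0. Of the other 6 mice, 4 had 1.44 to 2.63 CPM with 2 to 5 markers at 0, and wild type mouse 5 and ΔGm15551 mouse 4 had 282 and 1980 CPM. The part of these cells, of RNA quality and of library preparation in them was not tested.

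Each library was corrected for transcript length by a smooth curve over all genes, a step chosen after seeing the data. The median SD of the short members then went from 0.33 to 0.17, and that of the long members from 0.17 to 0.18. The SD rose, however, for the short members Sdhaf4 (0.14 to 0.31) and Uqcrb (0.15 to 0.21). Among the long members it rose for some, such as Sdhd (0.12 to 0.18), and fell for others, such as Cyc1 (0.16 to 0.12). In the corrected values the short members still exceeded the long ones by 0.28 in ΔGm15551 mouse 1 and 0.38 in wild type mouse 7. After the correction 36 of the 38 members had an interval within ±0.5 (8 of complex II, 11 of complex III and 17 of the ATP synthase), beside 7778 of all 13733 genes, and 0 were called. The log2FC of Uqcr11 then had an interval of -0.15 to 0.39. Atp5g1 kept an SD of 0.70.

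Some long members, Sdha, Uqcrc2, Atp5a1 and Atp5b among them, were low in the same pair of libraries, ΔGm15551 mouse 1 and wild type mouse 7, while Sdhb, Cyc1 and Atp5pb were not. Complex II took 0.290% and 0.289% of counts there and 0.360% to 0.393% in the other 8 mice, mainly through Sdha. Ucp1, the uncoupling protein of brown adipocytes, was lowest in these 2 mice too, at 5747 and 6436 CPM against 8266 to 10989 CPM in the others. The summed brown adipocyte markers, of which Ucp1 is the largest, were lowest there too (11651 and 11551 CPM against 13343 to 15791 CPM). This sum is not independent of Ucp1. Of the single markers, Dio2 (340 and 304 CPM) and Prdm16 (25.5 and 21.8 CPM) were also lowest in these mice. The other markers did not follow. Cox8b was highest there (807 and 796 CPM, against 418 to 707 CPM in the others). Cidea (2497 and 2115 CPM), Cox7a1 (478 and 509 CPM), Elovl3 (1210 and 1077 CPM) and Adrb3 (168 and 129 CPM) were not lowest there. Ppargc1a was lowest in wild type mouse 7 (94.0 CPM) but not in ΔGm15551 mouse 1 (199 CPM). Summed red blood cell markers were highest there (1779 and 2559 CPM). Without these 2 mice 0 members were called and 31 of 38 had an interval within ±0.5, beside 53.9% of all genes. What sets these libraries apart was not tested.

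Of the partners outside the rule none was called different either. The mitochondrial genome encodes cytochrome b of complex III (mt-Cytb, 20973 ± 2359 CPM in ΔGm15551 mice and 19950 ± 1580 in wild type, SD, n = 5) and the subunits mt-Atp6 (23173 ± 3985 and 22776 ± 2576 CPM) and mt-Atp8 (734 ± 194 and 842 ± 179 CPM) of the ATP synthase. In ΔGm15551 mouse 1 and wild type mouse 7, mt-Atp6 was highest (28190 and 27079 CPM, followed by 26708 CPM in ΔGm15551 mouse 7), but mt-Atp8 (645 and 689 CPM) and mt-Cytb (20464 and 19111 CPM) were not. Since poly A RNA was sequenced, the level of mitochondrial transcripts also reflects how much of their poly A tail was captured.

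Of 5 partners of complex III (Uqcc1, Uqcc2, Uqcc3, Lyrm7 and cytochrome c, Cycs), 2 were higher and 3 lower and 0 were called. Of 4 tested genes for assembly and control of the ATP synthase (Atpif1, which inhibits its reverse reaction, Tmem70, Tmem242 and Fmc1), 2 were higher, 2 lower and 0 called. Atpif1 stood at only 5.47 ± 1.44 CPM in ΔGm15551 mice and 5.67 ± 1.80 CPM in wild type mice. The phosphate carrier Slc25a3 and the ADP/ATP carriers Slc25a4 and Slc25a5 had 1 higher, 2 lower and 0 called.

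Of the 8 regulators of respiratory chain genes (Ppargc1a, Ppargc1b, Esrra, Esrrg, Nrf1, Gabpa, Tfam and Perm1), 3 were higher and 5 lower, with 0 called and a median log2FC of -0.038. Ppargc1a, the coactivator of mitochondrial biogenesis, stood at 222 ± 59.4 CPM in ΔGm15551 mice and 232 ± 95.9 CPM in wild type mice. Esrra was steadier, at 381 ± 16.3 and 369 ± 44.9 CPM. Ucp1 stood at 9134 ± 2143 and 8244 ± 1058 CPM, with a log2FC of 0.15 ± 0.18 (SE, edgeR). The log2FC of Ucp1 was 0.28 without ΔGm15551 mouse 1 and 0.071 without wild type mouse 7.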

How the data were processed

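Per the labels and the study's methods, the authors trimmed reads with cutadapt and quantified poly A RNA of 10 iBAT samples with Salmon against GENCODE M22 (GRCm38). Versions are not given in the sources used here, nor whether counting used the strand. The deposited values are estimated counts (expected counts) per gene, already whole numbers, with no scaling to depth. Members, lists and tests were chosen with earlier results of these data known. Genes were kept by filterByExpr (minimum count 10, minimum total 15) with Gm15551 added, which left 13733 genes. They were fitted with genotype as the only term in edgeR 4.0.16 (R 4.3.3, TMM, robust quasi-likelihood F test), with Benjamini-Hochberg adjustment and a threshold of 0.05. The SE was derived from the F statistic. log2 CPM used a prior count of 2. Positions, lengths and 31-base words came from GENCODE M21 on GRCm38. The fit was tested on simulated counts. Alternatives used DESeq2 1.42.0, limma 3.58.1, other scalings and filters, fewer mice, a muscle covariate and a loess length correction (span 0.3). Genes named with a log2FC were the Sdh subunits, Cyc1, Uqcrfs1, Uqcrc1, Atp5a1, Atp5b, the subunit c genes, the most and least abundant member of each complex and those with the smallest p or largest difference. No pair of libraries of the same genotype was a duplicate.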

Additional observations from a re-analysis of the deposited data

Results flagged for a closer look

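In the ΔGm15551 group, complex II took 0.290% of counts in mouse 1 against 0.368% to 0.384% in the other 4 mice. This value stood apart from its group by Dixon's criterion (ratio 0.831, critical value 0.71 for 5 samples). It was the only value of 48 sets of 5 mice to do so, and chance alone would give about 1 in 20 sets, or 2.4. Wild type mouse 7 was as low (0.289%).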

How the results depend on the processing

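In all 22 alternatives 0 members were called (lowest adjusted p of a member 0.835, with no filter on low counts). An unadjusted p under 0.05 was reached by 1 member in 1 alternative, Bcs1l of complex III in the 6 mice with shared replicate numbers. There, without a block, 4.02% of all genes reached it. Lacking the 3 higher-numbered wild type mice, the median log2FC of complex III was 0.16. The cause was not tested. Under the block and in the same 6 mice unblocked, the median was -0.029 and -0.039 for complex III and -0.15 and -0.14 for the ATP synthase, the latter a shift below the SD between mice of that complex's median deviation. Leaving out each mouse in turn gave medians of -0.063 to 0.026 for complex II, 0.0069 to 0.086 for complex III and -0.075 to 0.10 for the ATP synthase, and their order changed. Mice of the same replicate number were not alike (correlations -0.07, 0.05 and -0.39 after centring each genotype). With only 3 shared numbers this cannot decide whether the numbers mark pairs. With the replicate number as a block in these 6 mice, 0 genes were called. In that fit 398 genes and 0 members had an unadjusted p under 0.05. An interval within ±0.5 was found for 5 of 38 members, beside 14.7% of all genes. Without the block 554 genes had an unadjusted p under 0.05, and 13 members had such an interval, beside 26.6% of all genes. Lacking the 3 wild type mice 16 members had one, beside 24.0% of all genes. All genes at an unadjusted p under 0.05 numbered 220 as reported, 869 with no filter (30984 genes tested), 416 lacking ΔGm15551 mouse 1 and wild type mouse 7, and 420 and 404 lacking either alone.

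The log2FC changed sign as follows, never called. Under the block it was 0.097 for Sdhc, 0.037 for Sdhd, 0.094 for Sdhaf3, -0.16 for Uqcr11, -0.089 for Atp5g2, -0.20 for Atp5g3 and 0.11 for Atpaf1, and unblocked 0.098, 0.039, 0.068, -0.11, -0.13, -0.21 and 0.075. Without a change of sign, Atp5g1 was at -0.73 and -0.83 and Sdha at 0.33 and 0.29 in these settings. Lacking the 3 higher-numbered wild type mice it was -0.046 for Sdha, -0.0061 for Atp5a1, -0.029 for Atp5b and 0.64 for Atp5g1. In that setting the log2FC kept its sign but moved to -0.27 for Sdhaf3, 0.37 for Uqcr11, 0.21 for Cyc1, 0.17 for Atp5g3 and 0.11 for Uqcrc1. With limma-voom it was 0.0012 for Sdhaf3 and 0.019 for Atp5g1. With the length correction it was -0.00089 for Sdhb, 0.0011 for Sdhaf3, -0.00016 for Atp5a1 and -0.0057 for Atp5g3. Lacking ΔGm15551 mouse 1 and wild type mouse 7 together it was 0.017 for Sdhc, 0.18 for Atp5g1 and -0.011 for Atp5g2. Leaving out each mouse in turn gave -0.11 to 0.14 for Sdha, -0.025 to 0.053 for Sdhb, -0.049 to 0.038 for Sdhc, -0.12 to 0.063 for Sdhaf3, -0.012 to 0.096 for Uqcrc1, -0.059 to 0.083 for Atp5a1, -0.046 to 0.076 for Atp5b, -0.32 to 0.33 for Atp5g1, -0.17 to 0.24 for Atp5g2 and -0.087 to 0.17 for Atp5g3. For Sdhd it gave -0.10 to -0.019, for Ttc19 -0.23 to -0.096, for Atpaf1 -0.26 to -0.047, for Cyc1 0.019 to 0.13, for Ucp1 0.071 to 0.28, for Uqcr11 0.0087 to 0.35 and for Atp5k -0.27 to -0.00061, with no change of sign. Of the tested members Atp5g1, Atp5g2 and Sdhaf3 had the fewest counts, 58 to 253 per mouse.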
